A study of Mus musculus with 4 samples.

Results

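The endothelial-gated cells of lung tumour suspensions are described here, in 4 single-cell libraries taken before and after beads were used to remove CD45+ and CD31+ cells. Members were chosen by measured values. Barcodes were kept when 200 or more genes were seen and no more than 20% of their UMIs (unique molecular identifiers, 1 per captured transcript) were mitochondrial, and a kept cell was a member if Cdh5, Cldn5, Ptprb, Ramp2 and Egfl7 together gave at least 4 UMIs, Cdh5 and Pecam1 together at least 1, and Ptprc, Col1a2 and Epcam none. This gave 487 members of 28085 kept cells. All 4 libraries carry the same genotype label, although the vehicle libraries are titled KP and the tamoxifen libraries KPH. The mice, called KPH in the treatment notes, carried frt-flanked p53 (p53frt), a Flp-activated CreERT2 at Rosa26 (Rosa-FSF-CreERT2) and floxed Hnf4a (Hnf4aflox) in all groups. Tumours were started by intubation of adenovirus carrying FlpO under the mouse surfactant protein C promoter. The mice received tamoxifen or vehicle at 10 weeks, and tumours were taken 2 weeks later. Each treatment gave 1 library before and 1 after depletion, and values below follow the order vehicle before, vehicle after, tamoxifen before, tamoxifen after. The portions before and after depletion came from the same suspensions, and the number of animals or tumours in a suspension is not stated. The promoter is active in alveolar type 2 cells. In members Cre transcripts gave 0, 0.827, 0 and 1.27 CPM (a gene's share of the UMIs summed over members, scaled to parts per 1000000) and Hnf4a 0, 0.827, 0 and 5.07 CPM. With no replicates there is no test below; intervals are exact 95% intervals that cover counting error only, and directions are given for the libraries as labelled.

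Endothelial cells line blood and lymph vessels. VE-cadherin (Cdh5) and CD31 (Pecam1) hold them together, and lung capillaries consist of general capillary cells, which can divide and repair, and aerocytes, which are specialised for gas exchange. Endothelial cells respond to VEGF by sprouting through tip cells, carry selectins and adhesion molecules for leukocytes, and display peptides on MHC class I, which interferons increase. CD31 is the protein the beads bind, so a library after depletion holds the endothelial cells that stayed in the unbound fraction.

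The 5 marker genes given for these cells were abundant in every library, which is set by the rule for all but Gpihbp1. Cdh5 was at 1054, 916, 1077 and 1037 CPM, and Pecam1 at 1164, 953, 1079.8 and 1025 CPM. Gpihbp1, which carries lipoprotein lipase on capillaries and which the rule did not use, was at 857, 1201, 1066 and 1269 CPM. Among 22 further pan-endothelial genes that the rule did not use, all were measured: Flt1, a VEGF receptor, stood at 1934, 1763, 1629 and 1442 CPM, Emcn (endomucin) at 854, 1044, 802 and 849 CPM and Sox18, an endothelial transcription factor, at 317, 320, 317 and 319 CPM. Markers of fibroblasts, mural cells, mesothelium and red cells were at or near 0 with these exceptions: the mural genes Rgs5 and Higd1b reached 62.0 and 44.7 CPM in vehicle after depletion, where 1 cell held 98.7% of the Rgs5 UMIs, and Hbb-bs, a haemoglobin gene, was at 31.3, 0, 0 and 0 CPM. The libraries held from 92644997 to 144994771 UMIs. Median UMIs per member were 12327, 8295, 9313 and 6906, and pairs of libraries shared from 10 to 18 cell barcodes.

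The rule was sharp on its positive side and less so on its negative side. The positive part was met by 228, 251, 206 and 170 cells, of which 112, 116, 81 and 59 carried at least 1 UMI of a negative gene and were left out. In the libraries before depletion Ptprc was present in 86 and 57 of the cells left out, and in those after depletion Epcam was present in 114 and 57. Cells left out were deeper, with median UMIs of 18834, 33144.5, 22914 and 21470. At the lower edge, 0, 2, 1 and 0 members had exactly 4 UMIs of the positive genes and 1, 0, 0 and 0 cells missed by having 3, while 7, 24, 7 and 9 cells failed through a single Epcam UMI.

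Endothelial-gated cells remained after the beads, in smaller number relative to tumour epithelium. Members numbered 116, 135, 125 and 111, or 1.59% (1.31 to 1.90), 1.92% (1.61 to 2.26), 2.01% (1.67 to 2.39) and 1.48% (1.22 to 1.78) of the kept cells. Immune-gated cells, gated on Ptprc, went from 3550 to 5 with vehicle and from 2508 to 10 with tamoxifen, so the other kept cells changed between the portions as well. Per 100 epithelial-gated cells there were 13.3 members before and 2.11 after depletion with vehicle, a 6.32-fold difference (4.84 to 8.25). With tamoxifen there were 14.0 before and 1.58 after, an 8.86-fold difference (6.74 to 11.7). Per fibroblast-gated cell, a class the beads do not target, the difference was 1.5-fold (1.02 to 2.22) with vehicle and 1.79-fold (1.17 to 2.76) with tamoxifen. Epithelial-gated cells went from 870 to 6401 with vehicle and from 892 to 7018 with tamoxifen, and fibroblast-gated cells from 80 to 140 and from 61 to 97. Fibroblast-gated cells were thus also fewer per epithelial-gated cell after depletion. The gates ask for no Ptprc or no Epcam UMI, and the intervals do not cover how these gates shift between portions. Between treatments, the number of members per epithelial-gated cell with tamoxifen was 1.05 times that with vehicle before depletion (0.796 to 1.39) and 0.750 times after it (0.577 to 0.974).

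**Figure D1:**
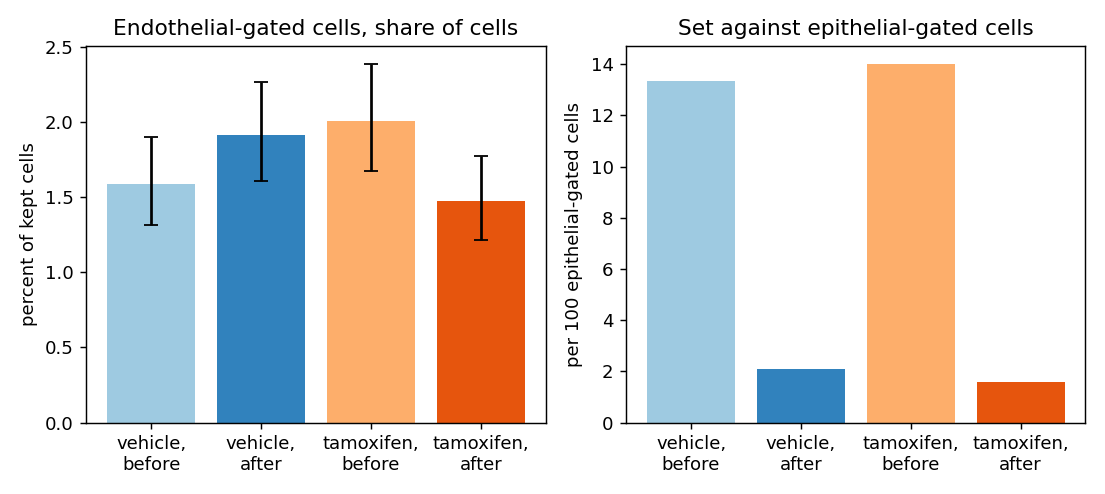
Left, endothelial-gated cells as a percentage of kept cells in each library, with Clopper-Pearson 95% intervals; right, their number per 100 epithelial-gated cells. The shares lie between 1.48% and 2.01%, while the right panel goes from 13.3 to 2.11 with vehicle and from 14.0 to 1.58 with tamoxifen.

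The cells that stayed still carried the transcript of the bead target. Pecam1 is partly used by the rule and is given as a description: the log2 ratio after over before depletion was -0.29 (95% interval -0.40 to -0.18) with vehicle and -0.08 (95% interval -0.20 to 0.05) with tamoxifen, where the ratio is of CPM with 1 CPM added to each. Member by member, the median Pecam1 level was 1179, 946, 979 and 1003 CPM, and 4, 1, 0 and 1 members had no Pecam1 UMI. With a rule that uses Cdh5 alone in place of both genes, Pecam1 stood at 1164, 959, 1080 and 1027 CPM. CD31 protein was not measured.

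Across all genes, 5494 reached 30 CPM in at least 1 library of both before-and-after pairs. A gene counted as apart if its level differed at least 2-fold the same way with vehicle and with tamoxifen, which is a rule of size and not a test. By it 14 genes (0.255%) were higher and 20 (0.364%) lower in cells that stayed, 0.619% in all. Of these, 12 of the 14 and 11 of the 20 stood higher in other kept cells of at least 1 library than in members. The median log2 ratio over all genes was -0.04 with vehicle and -0.01 with tamoxifen.

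The genes that were higher after depletion were mostly those of alveolar type 2 and tumour epithelium. Sftpc, encoding surfactant protein C (chromosome 14, 70520949 to 70524081, GRCm38), was at 231, 3594, 241 and 1474 CPM. Surfactant genes Sftpa1 and Sftpb stood at 28.1, 366, 24.4 and 159.6 CPM and 28.7, 182, 33.7 and 165 CPM, and the keratins Krt8 and Krt18 at 5.87, 40.5, 10.7 and 30.4 CPM and 6.53, 63.7, 10.7 and 49.4 CPM. In vehicle after depletion 1 cell held 59.5% of the Sftpc UMIs, and with it left out, as every member over 2% epithelial UMIs was, 11 genes were higher. Over the 16 epithelial markers the median log2 ratio was 2.50 and 2.15, and 15 of 16 were higher in both pairs, against 27.8% of all genes. Thinned to 2000 UMIs, 16.7%, 88.0%, 20.3% and 84.5% of members had at least 2 epithelial UMIs. Epithelial-gated cells made up 11.9%, 90.9%, 14.3% and 93.4% of kept cells in the same order, high in the same libraries as these transcripts, and their part in the other results was not tested. In the other direction Chil3, a macrophage gene, was at 52.9, 0, 46.6 and 0 CPM and Igkc, an antibody light chain, at 58.7, 0, 76.7 and 0 CPM.

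The lymphatic genes Ccl21a, Mmrn1 and Reln were found in members before depletion and had no UMI after it, while other genes of the list stayed measurable. Ccl21a, the chemokine that draws dendritic cells into lymph vessels (chromosome 4, 42772860 to 42773993, GRCm38), was at 316, 0, 164 and 0 CPM. A count of 0 allows up to 2.48 and 3.8 CPM (3 UMIs per library), at least 127-fold and at least 43.2-fold below the summed UMIs before depletion. These bounds count UMIs as separate draws. The Ccl21a UMIs came from 4 members with vehicle and 1 member with tamoxifen, so no such bound holds over cells. Mmrn1 stood at 36.6, 0, 24.4 and 0 CPM and Reln at 13.1, 0, 5.02 and 0 CPM. These UMIs sat in few cells: 4 of 116, 0 of 135, 1 of 125 and 0 of 111 members held UMIs of 2 or more of Prox1, Mmrn1, Ccl21a, Reln and Pdpn. The corresponding shares were 3.45% (0.947 to 8.59), 0% (at most 2.70), 0.8% (0.0203 to 4.38) and 0% (at most 3.27), and the intervals overlap. A further 5, 4, 5 and 0 cells with 2 or more of these genes met the positive part but carried a negative gene. The absence in vehicle after depletion thus holds for members, and such cells were present among those left out. Prox1, the transcription factor that sets lymphatic identity, was at 40.5, 4.96, 7.88 and 10.1 CPM, lower after depletion with vehicle and not with tamoxifen. Lyve1 and Flt4, which blood capillaries of the lung also express, were at 202, 154, 144 and 184 CPM and 108, 60.4, 98.2 and 74.7 CPM. Of the 7 lymphatic genes 5 were lower in both pairs, against 33.5% of all genes. Thinned to 2000 UMIs, 14.0%, 10.5%, 9.76% and 10.0% of members had at least 2 UMIs of the list.

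A further 5 genes, grouped here after their values were seen, were lower after depletion in members and in epithelial- and fibroblast-gated cells. Gphn (gephyrin) was at 1102, 323, 1143 and 504 CPM in members, 782, 389, 747 and 428 CPM in epithelial-gated and 700.5, 332, 851 and 433 CPM in fibroblast-gated cells. Lars2, the mitochondrial leucyl-tRNA synthetase, was at 728, 186, 723 and 287 CPM in members, 415, 157, 422 and 221 CPM in epithelial-gated and 445, 225, 556 and 305 CPM in fibroblast-gated cells. Camk1d, a calcium-dependent kinase, was at 767, 303, 688 and 303 CPM in members, 461, 249, 477 and 262 CPM in epithelial-gated and 553, 332, 653 and 348 CPM in fibroblast-gated cells. In each of these genes both libraries before depletion were above both libraries after it in all 3 classes, as they were for the next 2. Cmss1 was at 2616, 1044, 4139 and 1979 CPM in members, 1135, 484, 1645 and 774 CPM in epithelial-gated and 1204, 696, 2588 and 1117 CPM in fibroblast-gated cells. Zbtb16, a zinc finger transcription factor, was at 108, 24.8, 98.9 and 39.3 CPM in members, 46.0, 19.0, 19.9 and 16.1 CPM in epithelial-gated and 59.3, 24.5, 98.4 and 38.8 CPM in fibroblast-gated cells. Gphn and Camk1d fall outside the naming rule.

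Other genes were lower after depletion in members and not by as much in the other cells named beside them. The class set beside a gene differs from gene to gene, and not every class is given for each. Sema3c, a secreted semaphorin, was at 192, 81.9, 221 and 78.5 CPM in members and 178, 204, 164 and 192 CPM in epithelial-gated cells. Pde3a, a phosphodiesterase, was at 76.4, 35.6, 134 and 62.1 CPM in members and 119, 171, 184 and 238 CPM in fibroblast-gated cells. Hmcn1 (hemicentin) was at 81.6, 35.6, 91.0 and 30.4 CPM in members, at 3.28, 2.56, 1.19 and 0.833 CPM in epithelial-gated cells and at 430.5, 287, 259 and 239.8 CPM in fibroblast-gated cells. Short of 2-fold, the angiopoietin receptor Tek was at 243, 125, 234 and 166 CPM, endothelial nitric oxide synthase Nos3 at 151, 82.7, 120.4 and 89.9 CPM, thrombomodulin (Thbd) at 250, 160.4, 265 and 171 CPM and podocalyxin (Podxl) at 604, 329.9, 448 and 343 CPM. None of the 22 pan-endothelial genes was 2-fold apart, against 0.619% of all genes, and 14 of them were lower in both pairs against 33.5% of all genes.

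Among pathway lists, G2/M genes leaned lower and heat shock and immediate early genes higher after depletion. Of 14 G2/M genes, 11 were lower in both pairs against 33.5% of all genes, with medians of -0.56 and -0.42, and Tpx2, a spindle protein, was 2-fold lower in both at 39.8, 19.0, 62.3 and 22.8 CPM. It was found in 13, 9, 8 and 4 members, 1 cell held 61.1% of its UMIs in tamoxifen after depletion, and it was no longer 2-fold apart with TMM or median-of-ratios scaling, with equal weight for each cell, with a pseudocount of 5 CPM, with a minimum of 100 CPM, or when 1 UMI of a negative gene was allowed. S phase genes did not share this direction: their medians were -0.04 and 0.40, and of 12 genes 2 were higher and 1 lower in both pairs. Mki67, the proliferation marker, was at 125, 48.8, 109.6 and 74.7 CPM. The G2/M medians in epithelial-gated cells were -0.43 and -0.28. When each cell was given equal weight the G2/M median with tamoxifen became 0.03. Heat shock genes had medians of 0.34 and 0.24 and 8 of 10 were higher in both pairs against 27.8% of all genes, among them Hspb1 at 328, 449.8, 305 and 393 CPM. Immediate early genes had medians of 0.18 and 0.23, with Jun at 1578, 2302, 1920.2 and 2468 CPM. No heat shock or immediate early gene was 2-fold apart in both pairs, against 0.619% of all genes.

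**Figure D2:**
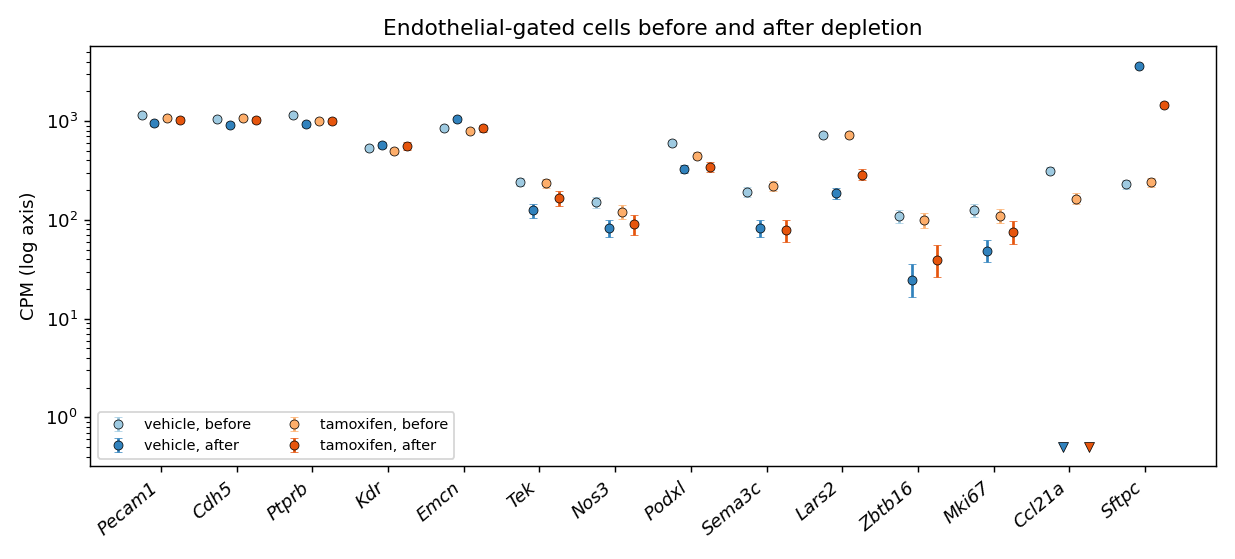
CPM of 14 genes in endothelial-gated cells of each library on a log axis, with exact Poisson 95% intervals and triangles for 0 UMIs. Pecam1 lies between 953 and 1164 CPM in all libraries, Ccl21a has no UMIs after depletion, and Sftpc is at 3594 and 1474 CPM in the libraries after depletion.

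Between treatments, antigen presentation and type I interferon genes were higher in both libraries labelled tamoxifen. H2-K1, a classical MHC class I heavy chain (chromosome 17, 33996017 to 34000347, GRCm38), was at 775, 757, 1422 and 1389 CPM. Both tamoxifen libraries were above both vehicle libraries, with log2 ratios of 0.87 (95% interval 0.77 to 0.98) before and 0.88 (95% interval 0.75 to 1.0) after depletion. H2-D1, another classical class I heavy chain, was at 1116, 1309, 1850 and 1824 CPM. B2m, the light chain that every class I molecule needs (chromosome 2, 122147686 to 122153083, GRCm38), was at 1273, 1317, 1865 and 2148 CPM, with log2 ratios of 0.55 (95% interval 0.47 to 0.64) and 0.70 (95% interval 0.61 to 0.80). H2-Q7, a non-classical class I gene, was at 108, 117, 292 and 262 CPM and was 2-fold apart in both pairs, as was H2-Q6 at 58.7, 48.0, 121 and 137 CPM. H2-Q6 and H2-Q7 are close copies, so reads may be split between them. Psmb8, an immunoproteasome subunit that cuts peptides for class I, was at 159.9, 218, 262 and 295 CPM. Of the 11 MHC class I genes 9 were higher in both pairs and none lower, with medians of 0.55 and 0.48, where 21.7% of all 5422 genes were higher in both pairs and the medians over all genes were -0.04 and -0.03.

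The difference was spread over members. The median member held 627, 622, 1402 and 1084 CPM of H2-K1 and 1099, 1183, 1677 and 1863 CPM of B2m. The cell with the most H2-K1 UMIs held at most 5.01% of a library's total.

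Among type I interferon response genes, Isg15, a ubiquitin-like protein made on interferon signalling (chromosome 4, 156199424 to 156200818, GRCm38), was at 77.7, 69.5, 179 and 179 CPM, with log2 ratios of 1.20 (95% interval 0.88 to 1.53) and 1.35 (95% interval 0.96 to 1.77). Bst2 (tetherin) was at 311, 319, 423 and 464 CPM. Ifit1, an antiviral RNA-binding protein, was at 17.6, 4.96, 37.3 and 20.3 CPM and Rtp4 at 35.9, 52.1, 79.5 and 76.0 CPM. Of 15 genes 14 were higher in both pairs against 21.7% of all genes, with medians of 0.75 and 0.71. Only 1 (Isg15) was 2-fold apart, against 0.277% of all genes. After thinning to 2000 UMIs, 38.6% (29.6 to 48.2), 38.3% (30.1 to 47.2), 54.5% (45.2 to 63.5) and 57.3% (47.5 to 66.7) of members had at least 2 UMIs of the list, against 2.67%, 3.67%, 4.67% and 6.67% of epithelial-gated cells, whose median UMIs were 22980.5, 18486, 26901.5 and 17022.5. Of 12 interferon-gamma response genes 3 were higher and 2 lower in both pairs, against 21.7% and 33.2% of all genes. Their medians were 0.18 and -0.05. The 7 MHC class II genes had medians of 0.68 and 0.31, with Cd74, the invariant chain, at 799, 928, 1218 and 1161 CPM and H2-Ab1 at 199, 210, 332 and 263 CPM.

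**Figure D3:**
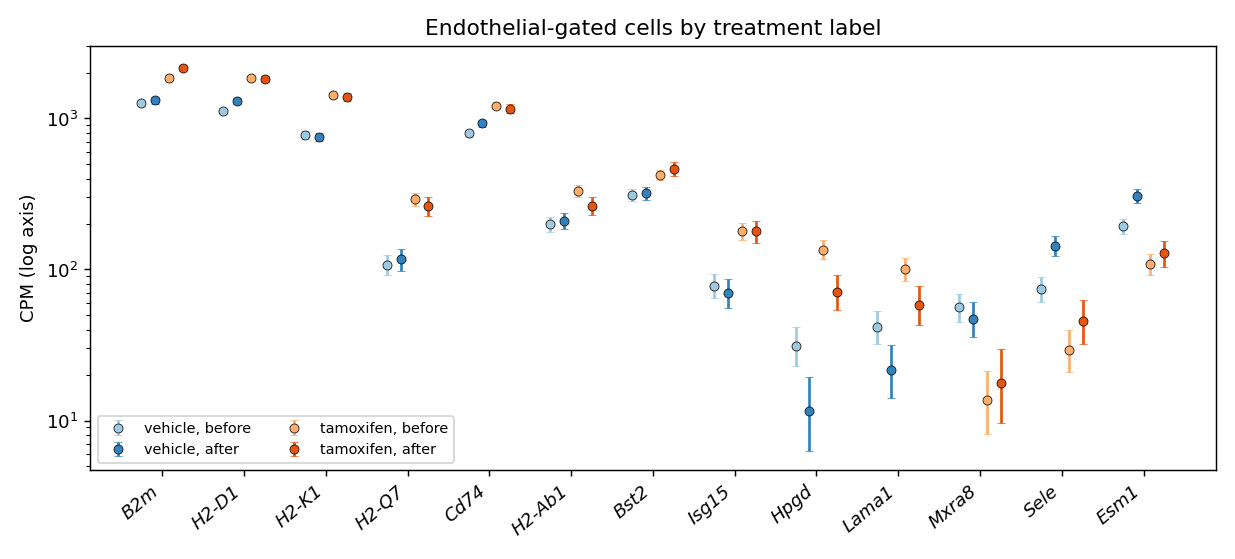
CPM of 13 genes in endothelial-gated cells of each library on a log axis, with exact Poisson 95% intervals. B2m, H2-D1, H2-K1, H2-Q7, Bst2 and Isg15 lie higher in both tamoxifen libraries than in both vehicle libraries, and Mxra8, Sele and Esm1 lie lower.

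The upstream sequences of 4 of these genes are shown because these genes were higher together in the libraries labelled tamoxifen. They are the 250 bases before the start in RefSeq (GRCm38.p6), read along the gene's own strand, with matches to GAAANNGAAA, the core of the interferon-stimulated response element, in capitals when found on either strand. Isg15 (chr4:156200819-156201068, minus strand) holds 3 overlapping matches, the farthest beginning 78 bases before the start, and Ifit1 (chr19:34640639-34640888, plus strand) holds 2, at 104 and 85 bases. B2m (chr2:122147437-122147686, plus strand) holds 1 at 139 bases, and the window of H2-K1 (chr17:34000348-34000597, minus strand) does not hold these letters.

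Isg15: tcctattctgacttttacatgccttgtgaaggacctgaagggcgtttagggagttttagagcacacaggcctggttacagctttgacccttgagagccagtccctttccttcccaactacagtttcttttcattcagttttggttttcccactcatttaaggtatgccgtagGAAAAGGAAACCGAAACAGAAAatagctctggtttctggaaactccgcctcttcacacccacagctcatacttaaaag

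Ifit1: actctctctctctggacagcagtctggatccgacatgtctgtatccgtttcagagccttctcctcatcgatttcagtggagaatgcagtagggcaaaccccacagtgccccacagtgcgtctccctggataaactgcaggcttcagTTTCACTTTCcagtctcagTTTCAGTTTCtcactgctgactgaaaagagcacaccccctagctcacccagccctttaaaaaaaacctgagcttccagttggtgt

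B2m: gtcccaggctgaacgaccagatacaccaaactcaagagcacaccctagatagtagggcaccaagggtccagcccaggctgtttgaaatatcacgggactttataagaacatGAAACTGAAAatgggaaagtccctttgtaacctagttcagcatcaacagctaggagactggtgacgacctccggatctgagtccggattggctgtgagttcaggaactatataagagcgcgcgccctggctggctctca

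H2-K1: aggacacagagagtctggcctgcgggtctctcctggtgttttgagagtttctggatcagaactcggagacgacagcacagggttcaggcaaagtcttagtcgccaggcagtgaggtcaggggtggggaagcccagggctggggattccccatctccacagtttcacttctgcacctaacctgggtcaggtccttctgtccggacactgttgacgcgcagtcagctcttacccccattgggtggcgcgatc

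The letters are present in 3.46% of 27025 genes with a promoter entry, 936 in all. They are present in 6 of the 12 type I interferon genes that were matched of 15, in 2 of 9 MHC class I genes matched of 11, and in 0 of 8 heat shock genes matched of 10. A match is a description of the letters and not of a bound factor. Other forms of the element were not searched for, so a window without these letters is not shown to lack one.

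The same genes were read in the other cells of the libraries. In epithelial-gated cells H2-K1 stood at 549.5, 485, 468 and 443 CPM and B2m at 312, 237, 307 and 261 CPM, so that for H2-K1 both tamoxifen libraries were below the vehicle library of the same portion. The MHC class I median there was -0.10 before and -0.13 after depletion. Fibroblast-gated cells, at 80, 140, 61 and 97 cells, held H2-K1 at 276, 327, 482 and 405 CPM and had list medians of 0.96 and 0.38. Immune-gated cells before depletion held H2-K1 at 1259.6 CPM with vehicle and 1372 CPM with tamoxifen, and a list median of 0.08. The type I interferon median was above 0 in each of these classes before depletion, at 0.75 in members, 0.39 in epithelial-gated, 0.97 in fibroblast-gated and 0.80 in immune-gated cells. The difference between classes was not tested.

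**Figure D4:**
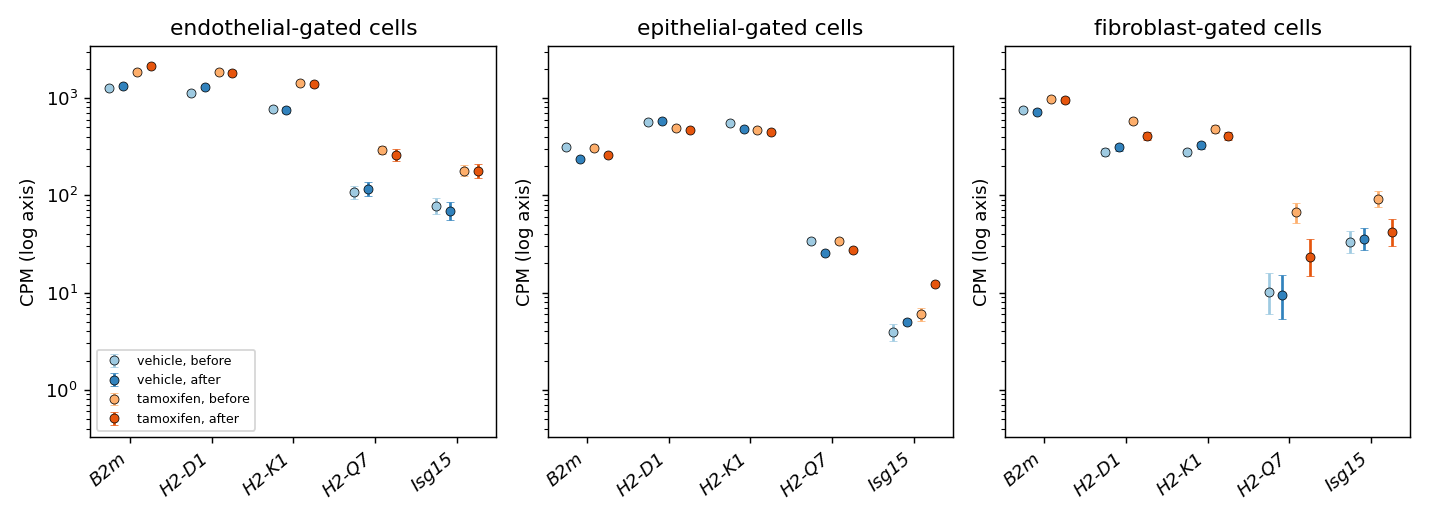
CPM of 5 genes on a log axis in endothelial-, epithelial- and fibroblast-gated cells of each library, with exact Poisson 95% intervals. H2-K1 is at 1389 to 1422 CPM with tamoxifen and at 757 to 775 CPM with vehicle in endothelial-gated cells, and between 443 and 549 CPM in epithelial-gated cells of all libraries.

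By the size rule 9 of 5422 genes (0.166%) were higher and 6 (0.111%) lower with tamoxifen in both pairs, 0.277% in all. Besides Isg15, H2-Q6 and H2-Q7, the higher genes were Hpgd, Lama1, Tmcc2, Mal, Ube2c and Cyp4b1. Hpgd, the enzyme that breaks down prostaglandins (chromosome 8, 56294585 to 56321043, GRCm38), was at 31.3, 11.6, 135 and 70.9 CPM, with log2 ratios of 2.08 (95% interval 1.65 to 2.60) and 2.52 (95% interval 1.75 to 3.57). It was found in 14, 7, 25 and 11 members, and the cell with most of it held 33.3, 28.6, 25.9 and 23.2% of its UMIs. Lama1, a laminin chain, was at 41.8, 21.5, 100.3 and 58.3 CPM, in 20, 16, 31 and 20 members. Ube2c, a mitotic ubiquitin-conjugating enzyme, was at 47.0, 33.9, 141 and 143 CPM, but 1 cell held 76.1% of it in tamoxifen after depletion. Mal, Ube2c, Cyp4b1 and H2-Q7 fall outside the ranked naming rule. With each cell given equal weight, 4 of these 9 and 3 of the 6 lower genes were still apart, and Tmcc2, Mal, Ube2c, H2-Q6, Lama1, Sele, Csmd1 and Itga9 were not. Cxcl9, a chemokine induced by interferon-gamma, had its 33 and 22 UMIs with tamoxifen in 1 cell each.

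Genes lower with tamoxifen included Mxra8, Sele and 9 of 12 tip and angiogenic genes. Mxra8, an adhesion protein, was at 56.1, 47.1, 13.6 and 17.7 CPM in 47, 41, 17 and 12 members, with log2 ratios of -1.97 (95% interval -2.84 to -1.31) and -1.36 (95% interval -2.37 to -0.55), and fibroblast-gated cells held 382, 297, 181 and 218 CPM. Sele, the selectin that slows leukocytes on inflamed vessels, was at 73.8, 143, 29.4 and 45.6 CPM in 13, 26, 8 and 6 members. The cell with most of it held 37.2, 34.1, 36.6 and 55.6% of its UMIs. The others by the size rule were Itga9, Mpp7, Hist1h1b and Csmd1, named here after their values were seen. Hist1h1b was found in 9, 5, 3 and 3 members and Csmd1 in 7, 7, 4 and 2. In tamoxifen after depletion 1 cell held 80% of the 5 Csmd1 UMIs. Of 11 leukocyte adhesion genes, Sele among them, 5 were lower in both pairs and 1 higher. Their medians were -0.29 before and -0.02 after depletion. Of 12 tip and angiogenic genes 9 were lower in both pairs and none higher, with medians of -0.21 and -0.32, against 33.2% of all genes lower in both. Esm1, a secreted proteoglycan of tip cells, was at 194, 308, 108 and 128 CPM. Of 14 basement membrane genes 11 were lower in both pairs, with medians of -0.37 and -0.15. Among them Col4a1, a collagen IV chain, was at 3908, 3207, 3198 and 3065 CPM and the laminin chain Lama4 at 342, 236, 204 and 199 CPM. No tip and angiogenic or basement membrane gene was 2-fold apart in both pairs, against 0.277% of all genes.

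BMP and TGF-beta pathway genes leaned the other way. Of 11 genes 7 were higher in both pairs and none lower, against 21.7% of all genes higher in both. Their medians were 0.24 and 0.33. Id1, a direct BMP target, was at 398, 397, 608 and 498 CPM, and the inhibitory Smad7 at 224, 246, 344 and 331 CPM. Of 7 VEGF and angiopoietin receptor genes 4 were lower in both pairs and none higher, against 33.2% of all genes lower in both. Their medians were -0.12 and -0.04. Kdr, the main VEGF receptor, was at 537, 574, 499 and 557 CPM, and for Flt1, at the values given above, both tamoxifen libraries were below both vehicle libraries. Notch pathway medians were -0.06 and 0.07, and those of the flow response genes, such as Klf2 at 1548, 1951, 2058 and 2034 CPM, were -0.04 and 0.11.

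Members fell into 6 clusters, each with cells of all 4 libraries and none with more than 37.5% from 1 library. By their highest lists, the largest, of 126 cells, was arterial-like, 91 cells were venous-like, 28 cycling and 16 aerocyte-like. In the arterial-like cluster Gja4, Gja5 and Bmx were among the 10 leading genes, found in 51.6%, 20.6% and 16.7% of its cells. Not every arterial gene was highest there: Dll4 was at 320 CPM against 406 in a cluster led by Kcne3. Dkk2 was at 92.3 CPM against 289 in venous-like cells. The general capillary gene Gpihbp1 was found in 84.1% of arterial-like cells. A cluster of 117 cells led by Hpgd, Glp1r and Sema3c stays unnamed because its highest list was epithelial, with no epithelial gene among its 10 leading genes. Sftpc was at 4324 CPM there against 840 CPM in arterial-like cells, but in a like share of cells, 96.6% and 97.6%. The 1 cell that held 59.5% of the Sftpc UMIs in vehicle after depletion falls in this cluster and raises that level. The highest list was not scored again without that cell. Sftpa1 was found in 37.6% of its cells against 54.8% of arterial-like cells. Among the endothelial lists its highest was general capillary, with a mean log2 fold of 0.41 over the other clusters. A cluster of 109 cells led by Kcne3 also stays unnamed: its highest list was tip and angiogenic, with Kcne3, Angpt2 and Pgf among its 10 leading genes, but these also held Kcnj8, Abcc9, Rgs5 and Higd1b, which mural cells express. Kcnj8 and Abcc9 were found in 18.3% and 19.3% of its cells, and Rgs5 and Higd1b in 1 cell. Kcnj8 and Abcc9 are not in the mural list and were counted as mural after their values were seen. Cluster sizes are not compared between libraries, since several genes that lead them differ between the groups. Thinned to 2000 UMIs, 95.6%, 92.5%, 90.2% and 87.3% of members had at least 2 general capillary UMIs and 22.8%, 29.3%, 19.5% and 26.4% had at least 2 aerocyte UMIs. Epithelial-gated cells gave 3.0%, 7.33%, 6.0% and 6.67% and 0.667%, 0.333%, 0.333% and 0% for the same lists. Arterial transcripts were found in 56.1% (46.5 to 65.4), 42.9% (34.3 to 51.7), 64.2% (55.1 to 72.7) and 54.5% (44.8 to 64.1) of members. These intervals overlap between the portions of each treatment and between the treatments in each portion. Vehicle after depletion lies below tamoxifen before depletion, but these libraries differ in both treatment and portion.

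Not every class I gene was higher in each cluster. H2-K1 and H2-D1 were higher with tamoxifen in 6 of 6 clusters, both before and after depletion, B2m and H2-Q7 in 5 of 6 in both pairs and H2-Q6 in 2 of 6. In arterial-like cells H2-K1 was at 818, 589, 1310.3 and 1410.3 CPM, in the cluster led by Kcne3 at 655, 628, 1358 and 1247 CPM and in venous-like cells at 654, 638, 864 and 672 CPM. The venous-like cells had the smallest of these 3 differences, with 1078, 1093, 1336 and 1099 CPM of H2-D1. Isg15 was higher in 5 of 6 clusters in both pairs, and in the cluster led by Kcne3 it was at 129, 59.1, 429.8 and 359 CPM. Hpgd was highest in the cluster it leads, at 216, 63.0, 629 and 322 CPM, but in arterial-like cells it was at 58.4, 0, 4.06 and 4.1 CPM, lower with tamoxifen before depletion, and it was higher in both pairs in 2 of 6 clusters. Mxra8 was lower or equal with tamoxifen in 6 of 6 clusters in both pairs. Over the libraries together, Sele was at 261 CPM in venous-like cells and at 24.0 CPM or less in each other cluster.

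**Figure D5:**
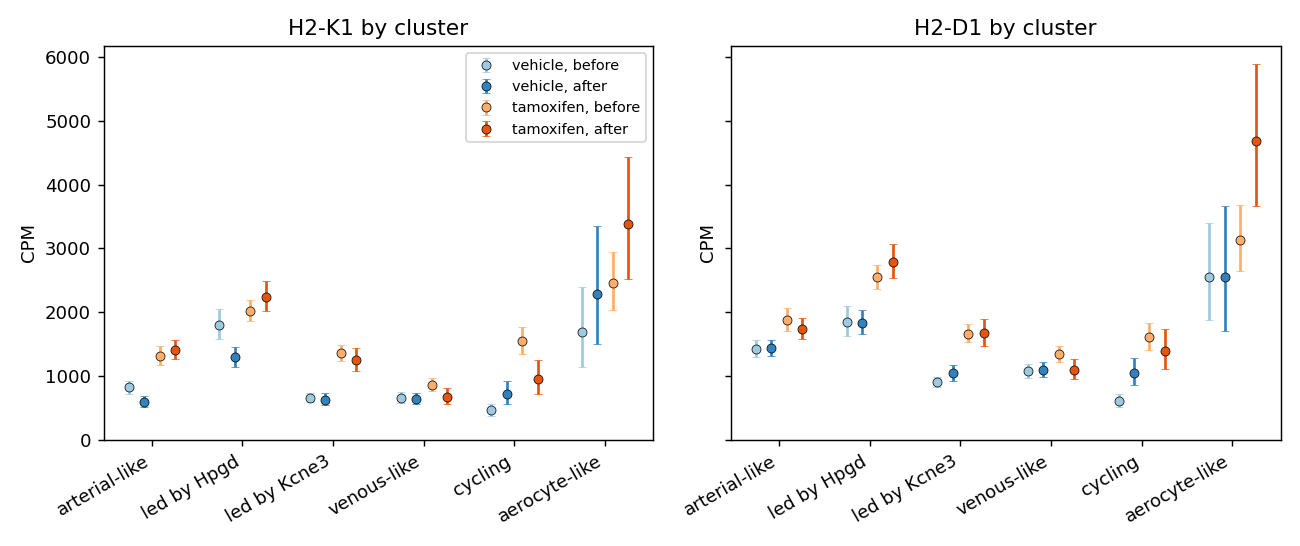
CPM of H2-K1 and H2-D1 in each cluster of endothelial-gated cells and each library, with exact Poisson 95% intervals. Both tamoxifen points lie above the vehicle points of the same portion in 6 of 6 clusters; the intervals overlap in several clusters, among them venous-like cells after depletion.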

How the data were processed

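Single-cell RNA was measured in 4 libraries. The authors deposited raw UMI counts for each gene in each barcode. Cell Ranger 7.0.1 made the matrices, per the file headers, while the submitters' processing notes name Cell Ranger 7.2.0 and build mm10; the annotation release and the use of intronic reads and strand are not given in the sources used here. The vehicle has more than 1 name in the labels. One allele of the genotype and 1 gene of the lists are not reported here.

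Of 32289 features, 32158 matched GENCODE M21 (GRCm38), which gave the coordinates. UMIs were summed over members and given as CPM. Ratios are log2 with a pseudocount of 1 CPM, and their intervals are exact conditional binomial intervals without it. CPM intervals are exact Poisson, share intervals Clopper-Pearson, and ratios of cell counts carry exact conditional odds ratio intervals. A count of 0 allows 3 counts. The size rule asks at least 30 CPM in either library of both pairs and a 2-fold difference the same way in both. Comparisons between treatments and between portions use the same 4 libraries. List medians are over members of a list with at least 3 UMIs.

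Epithelial-gated cells had at least 4 UMIs of Epcam, Cdh1, Krt8, Krt18, Cldn3 and Cldn4 together and none of Ptprc, Col1a2 and Cdh5. Fibroblast-gated cells had at least 4 of Col1a1, Col1a2, Col3a1, Dcn and Pdgfra and none of Ptprc, Epcam and Cdh5, and immune-gated cells had Ptprc and none of Cdh5, Col1a2 and Epcam. Doublets were scored with Scrublet in scanpy 1.11.5 at an expected rate of 0.06 and kept in the main values; scores of 0.25 or more were left out as an alternative. Clusters came from Leiden clustering (leidenalg 0.10.2). TMM factors came from edgeR 4.0.16. Named genes were the 5 markers with Pecam1, up to 4 of the highest members of each list plus members 2-fold apart, and the 8 highest and 8 lowest of each comparison, leaving out gate, mitochondrial, ribosomal, immunoglobulin and sex-linked genes and genes higher in other cells. Other members of the lists are named as examples, chosen after their values were seen. The members and lists were chosen with earlier results of these data known. The 37 lists include markers of other cell types. Leaving out the aerocyte-like cluster or cells with lymphatic genes was added after seeing the data.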

Additional observations from a re-analysis of the deposited data

Results flagged for a closer look

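List medians that go opposite ways in endothelial- and epithelial-gated cells drew attention. For MHC class I the median log2 ratio of tamoxifen over vehicle was 0.55 in endothelial-gated and -0.10 in epithelial-gated cells before depletion, and 0.48 and -0.13 after it. For MHC class II it was 0.68 and -0.17 before depletion, and 0.31 and -0.16 after it. The difference between the cell classes was not tested, since each group holds 1 library.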

How the results depend on the processing

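No paired analysis was possible because each group holds 1 library and the groups share fewer than 2 replicate numbers; the portions of a suspension are set side by side pair by pair, with no test. With 1 library per group no spread between animals is known, and values below moved beyond their counting interval or, for counts, by over 1.5 times. Of 154 recomputed values for member shares, Pecam1 and counts of genes, 135 stayed within that range. So did 755 of 780 ratios of genes counted as apart that met the naming rule, and none reversed. Ratios of the other genes counted as apart are not among these 780. Of 1980 list medians 1846 stayed, 131 moved and 3 reversed. Of 56 subtype shares 2 stayed and 54 moved.

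With mean over cells of CPM, the counts were 34 lower for after against before. With pseudocount 5 CPM, the counts were 3 lower for tamoxifen against vehicle. With minimum 10 CPM, the counts were 34 higher for after against before, 62 lower for after against before, 30 higher for tamoxifen against vehicle and 20 lower for tamoxifen against vehicle. With minimum 100 CPM, the counts were 3 higher for after against before, 8 lower for after against before, 4 higher for tamoxifen against vehicle and 0 lower for tamoxifen against vehicle. With no CPM minimum, the counts were 252 higher for after against before, 330 lower for after against before, 167 higher for tamoxifen against vehicle and 146 lower for tamoxifen against vehicle. With a fold of at least 4-fold, the counts were 8 higher for after against before, 4 lower for after against before, 1 higher for tamoxifen against vehicle and 0 lower for tamoxifen against vehicle. With negative genes at most 1 UMI, members made up 2.3% of kept cells in vehicle after depletion.

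The setting "positive genes at least 6 UMIs" gave list medians of after over before with vehicle 0 for mural markers; tamoxifen over vehicle after depletion 0.45 for mural markers (reversed). The setting "negative genes at most 1 UMI" gave list medians of after over before with vehicle -0.30 for arterial, -0.21 for venous, -2.34 for lymphatic, -0.14 for tip and angiogenic, 0.29 for MHC class II, -0.30 for S phase, 2.78 for epithelial markers and 0.31 for mural markers; after over before with tamoxifen 0.13 for venous, -0.18 for MHC class II, -0.17 for interferon-gamma response, 0.31 for immediate early and 2.54 for epithelial markers; tamoxifen over vehicle before depletion 0.29 for arterial, -0.12 for tip and angiogenic, 0.48 for type I interferon response, 0.27 for lipid handling, 0.11 for hypoxia and glycolysis, 0.014 for immediate early, -0.00799 for heat shock, -0.84 for S phase, 0.23 for vascular tone and -1.72 for mural markers; tamoxifen over vehicle after depletion 0.039 for pan-endothelial outside the gate, 0.46 for aerocyte capillary, 0.36 for arterial, -0.22 for tip and angiogenic, 0.19 for flow response, 0.42 for MHC class I, 0.13 for lipid handling, 0.038 for chemokines and secreted signals and -0.52 for epithelial markers. The setting "gate without Pecam1" gave list medians of after over before with vehicle 0 for mural markers; tamoxifen over vehicle after depletion 0.45 for mural markers (reversed). The setting "without Scrublet scores of 0.25 or more" gave list medians of after over before with vehicle 0.10 for hypoxia and glycolysis and -3.27 for immune markers; tamoxifen over vehicle before depletion -0.39 for lymphatic and -0.40 for basement membrane. The setting "without members over 2% epithelial UMIs" gave list medians of after over before with vehicle -0.12 for leukocyte adhesion and 1.89 for epithelial markers; tamoxifen over vehicle after depletion -0.0033 for epithelial markers. The setting "without the aerocyte-like cluster" gave list medians of after over before with vehicle 0.029 for hypoxia and glycolysis; after over before with tamoxifen 0.56 for aerocyte capillary; tamoxifen over vehicle before depletion -0.18 for aerocyte capillary, -0.19 for VEGF and angiopoietin receptors, -0.32 for basement membrane, 0.50 for MHC class I, 0.011 for hypoxia and glycolysis and 0.031 for chemokines and secreted signals; tamoxifen over vehicle after depletion 0 for aerocyte capillary and -0.14 for hypoxia and glycolysis. The setting "without cells of 2 or more lymphatic genes" gave list medians of after over before with vehicle -0.17 for pan-endothelial outside the gate, -0.44 for lymphatic, -0.33 for basement membrane and 0.079 for hypoxia and glycolysis; after over before with tamoxifen 0 for lymphatic; tamoxifen over vehicle before depletion -0.043 for pan-endothelial outside the gate, -0.17 for lymphatic, -0.28 for tip and angiogenic and -0.21 for leukocyte adhesion. TMM scaling gave list medians of after over before with vehicle -0.19 for gate positive genes, -0.079 for pan-endothelial outside the gate, -0.0055 for tip and angiogenic, -0.24 for basement membrane, 0.26 for lipid handling and 0.23 for immediate early; tamoxifen over vehicle before depletion -0.33 for basement membrane and 0.12 for immediate early. Median-of-ratios scaling gave list medians of after over before with vehicle -0.093 for pan-endothelial outside the gate, -0.25 for basement membrane and 0.22 for immediate early; tamoxifen over vehicle before depletion -0.33 for basement membrane and 0.12 for immediate early. Giving each cell equal weight gave list medians of after over before with vehicle -0.32 for arterial, -0.25 for venous, 0.16 for tip and angiogenic, -0.25 for BMP and TGF-beta pathway, -0.50 for flow response, -0.25 for leukocyte adhesion, -0.12 for basement membrane, -0.15 for MHC class I, -0.13 for MHC class II, -0.14 for interferon-gamma response, 0.22 for immediate early, -0.42 for G2/M phase, -0.35 for vascular tone, -0.42 for haemostasis, 2.23 for epithelial markers and -3.38 for immune markers; after over before with tamoxifen -0.19 for general capillary, 0.51 for aerocyte capillary, 0.21 for venous, -0.12 for tip and angiogenic, 0.096 for basement membrane, -0.089 for MHC class I, 0.16 for S phase, 0.026 for G2/M phase (reversed) and -0.016 for haemostasis; tamoxifen over vehicle before depletion -0.043 for pan-endothelial outside the gate, -0.15 for flow response, -0.22 for leukocyte adhesion, -0.32 for basement membrane, 0.44 for MHC class I, 0.47 for MHC class II, 0.051 for interferon-gamma response, 0.24 for lipid handling, -0.14 for heat shock, -0.42 for S phase, -0.11 for G2/M phase and 0.066 for immune markers; tamoxifen over vehicle after depletion 0.20 for MHC class II, 0.56 for type I interferon response, 0.18 for G2/M phase, -0.18 for epithelial markers and -1.34 for mural markers. The setting "pseudocount 0.1 CPM" gave list medians of after over before with vehicle -3.32 for lymphatic, 2.71 for epithelial markers, -6.89 for immune markers and 4.69 for mural markers; after over before with tamoxifen -5.68 for lymphatic, 2.33 for epithelial markers and -6.94 for immune markers. The setting "pseudocount 5 CPM" gave list medians of after over before with vehicle -1.85 for lymphatic, 1.74 for epithelial markers, -1.74 for immune markers and 1.22 for mural markers; after over before with tamoxifen -1.0 for lymphatic, 1.39 for epithelial markers and -1.95 for immune markers; tamoxifen over vehicle before depletion 0.63 for type I interferon response; tamoxifen over vehicle after depletion 0.37 for aerocyte capillary and -1.17 for mural markers.

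Without thinning, shares of members that moved were, in library order, general capillary 97.0%, 99.2% and 97.3%, aerocyte capillary 56.9%, 52.6%, 53.6% and 47.7%, arterial 91.4%, 83.0%, 95.2% and 87.4%, venous 87.9%, 90.4%, 83.2% and 88.3%, lymphatic 60.3%, 41.5%, 48.8% and 36.0%, tip and angiogenic 97.4%, 97.8%, 97.6% and 93.7%, G2/M phase 49.1%, 34.8%, 35.2% and 25.2%. With at least 1 UMI of the list, shares of members that moved were, in library order, general capillary 97.0%, 96.7% and 98.2%, aerocyte capillary 39.5%, 48.9%, 41.5% and 41.8%, arterial 74.6%, 64.7%, 86.2% and 78.2%, venous 80.7%, 83.5%, 80.5% and 84.5%, lymphatic 30.7%, 30.8%, 30.9% and 30.9%, tip and angiogenic 93.9%, 92.5%, 90.2% and 93.6%, G2/M phase 28.9%, 33.1%, 24.4% and 30.9%. Clustering gave 8 clusters at resolution 1.0 and 5 with all variable genes, against 6.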

Other observations

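Lipid handling genes, which capillary endothelium uses to take up fatty acids, were abundant in members. Fabp4 was at 792, 1343, 1009 and 1398 CPM and Cd36 at 941, 883, 951 and 1003 CPM. Fabp4 was higher after depletion in both pairs, short of 2-fold, while Lpl was at 74.4, 44.7, 81.0 and 59.5 CPM. Of the venous genes, Selp, the selectin stored in endothelial granules, was at 809, 469.7, 417 and 423 CPM, highest in vehicle before depletion. Ackr1, a chemokine scavenger of venules, was at 45.7, 18.2, 5.02 and 19.0 CPM. The list did not move as 1: of 9 genes measured, 1 was higher and 2 lower after depletion in both pairs. With tamoxifen 1 was higher and 4 lower in both pairs, against 21.7% and 33.2% of all genes. Medians were -0.12 and 0.02 after over before, and -0.17 and -0.12 for tamoxifen over vehicle.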
